A study of Homo sapiens with 2 samples.

Results

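The genes described here are those whose symbol is VPS, SNX or CHMP followed by a digit: vacuolar protein sorting genes, sorting nexins and charged multivesicular body proteins. They were chosen by symbol among the 41091 array probe sets that the platform annotation pairs with exactly 1 gene, and they comprise 78 of 19775 genes, measured by 185 probe sets. There are 38 VPS, 31 SNX and 9 CHMP genes. Of these, 74 encode proteins, and the other 4 are the transcripts VPS13A-AS1, VPS9D1-AS1 and VPS13C-DT and the pseudogene SNX29P2. The families were taken up with earlier results of the same 2 arrays known, and all values below describe those arrays. The symbol does not always mark a trafficking gene, since VPS72 encodes a subunit of chromatin-remodelling complexes, and it leaves out partners with other names, such as TSG101 of ESCRT-I and SNF8 of ESCRT-II. CHMP3 and CHMP4A were not analysed here.

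The samples were stable derivatives of C33-A, an adherent epithelial cell line from a human cervical carcinoma. The first, called CA9 cells here, carries human CA9 cDNA of full length in pcDNA3.0, and its control, called vector cells, carries the empty vector. CA9 encodes carbonic anhydrase IX, a membrane enzyme that hydrates carbon dioxide. Both grew in RPMI medium with 10% serum, and RNA extracted 4 days after seeding went to 1 Affymetrix array each. Neither label states if the cells are clonal or pooled. With 1 array per line no difference has a replicate check and no p-value is given, and how far cultures of 1 line vary is unknown.

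The proteins of these families move membrane receptors between endosomes, the Golgi, the cell surface and the lysosome. Retromer, a trimer of VPS26, VPS29 and VPS35, returns receptors from endosomes to the Golgi or the plasma membrane, and sorting nexins, which bind phosphoinositides through a PX domain, recruit cargo or shape the tubules that carry it. The ESCRT complexes work towards the lysosome: ESCRT-I and ESCRT-II collect ubiquitinated receptors, the CHMP proteins of ESCRT-III pinch off vesicles into the endosome, and the ATPase VPS4 takes the ESCRT-III filament apart. HOPS and CORVET tether endosomes before they fuse, GARP and EARP tether vesicles at the Golgi and at recycling endosomes, and VPS13 proteins carry lipids between membranes.

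Promoters are shown for SNX8 and SNX3, the members more than 1.5-fold higher in CA9 cells, and for SNX13 and VPS36, which were lower by more than that. The sequences are the 250 bases before the RefSeq gene start, 5′ to 3′ on the strand of the gene, with matches on either strand to 5 motifs in capitals: the E-box CACGTG, the core bound by ETS factors, CCGGAAG, the CCAAT box, the TATA box TATAAA and the GC box GGGCGG. No motif contains another.
SNX8 (GRCh38.p14, chr7:2314442-2314691, minus strand): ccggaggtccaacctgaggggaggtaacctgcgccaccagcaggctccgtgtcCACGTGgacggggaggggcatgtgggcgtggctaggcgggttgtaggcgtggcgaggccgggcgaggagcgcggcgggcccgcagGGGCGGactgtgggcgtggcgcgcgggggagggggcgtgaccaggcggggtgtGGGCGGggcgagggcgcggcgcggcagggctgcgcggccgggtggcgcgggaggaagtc
SNX3 (GRCh38.p14, chr6:108261041-108261290, minus strand): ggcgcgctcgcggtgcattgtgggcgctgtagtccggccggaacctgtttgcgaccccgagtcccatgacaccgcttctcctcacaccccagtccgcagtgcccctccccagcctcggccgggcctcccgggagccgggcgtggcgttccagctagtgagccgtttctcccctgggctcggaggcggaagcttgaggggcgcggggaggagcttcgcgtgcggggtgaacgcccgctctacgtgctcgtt
SNX13 (GRCh38.p14, chr7:17940495-17940744, minus strand): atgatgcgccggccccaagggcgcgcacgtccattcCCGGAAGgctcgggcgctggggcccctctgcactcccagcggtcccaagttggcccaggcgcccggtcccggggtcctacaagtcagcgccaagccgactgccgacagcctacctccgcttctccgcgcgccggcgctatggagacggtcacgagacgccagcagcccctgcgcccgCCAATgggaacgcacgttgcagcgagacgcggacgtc
VPS36 (GRCh38.p14, chr13:52450635-52450884, minus strand): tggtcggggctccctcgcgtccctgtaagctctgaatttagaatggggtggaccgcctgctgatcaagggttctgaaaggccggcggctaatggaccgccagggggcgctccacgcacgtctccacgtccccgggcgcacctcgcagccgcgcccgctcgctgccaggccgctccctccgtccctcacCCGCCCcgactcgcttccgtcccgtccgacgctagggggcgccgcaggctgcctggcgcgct
SNX8 had 1 E-box and 2 GC boxes by these letters. SNX13 had 1 ETS core and 1 CCAAT box. VPS36 had 1 GC box, and SNX3 had no match. RefSeq promoters were matched for 57 of the 78 genes, and their median GC content was 67.2%, against 58% for all 27305 promoters, which include those of non-coding genes. The GC box lay in 40 of the 57 (70.2%), against 42.3% of all promoters. The ETS core lay in 14 (24.6%, against 8.82%), among them 4 of 6 CHMP promoters. The CCAAT box lay in 13 (22.8%, against 33.04%), the E-box in 4 (7.02%, against 6.49%) and the TATA box in 2 (3.51%, against 11.1%). These are matches of letters only.

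In RNA from whole cultures, fewer cells with a transcript and less of it per cell cannot be told apart. The probe set that was brightest on average over both arrays stands for each gene. Intensities are the authors' RMA values on a linear scale, and a difference is the log2 value of CA9 cells minus that of vector cells. Measurable genes exceeded an intensity of 40.8, the median over all probe sets but the controls, on at least 1 array. That held for 72 of the 78 genes, all of them above the floor on both arrays, and for 13823 of all genes. CHMP4C, SNX7, SNX20, SNX31, SNX29P2 and VPS13C-DT were not measurable, and lay between 9.92 and 32.1 in CA9 cells and between 10.9 and 36.4 in vector cells. As the cell line check, 7 of 9 epithelial and cervical carcinoma markers were measurable, with differences from -0.30 for KRT5 to 0.63 for KRT14 and a median of 0.18. CDKN2A, the brightest, had an intensity of 2659 in CA9 cells and 2739 in vector cells, and KRT8 had 101 in CA9 cells and 68.3 in vector cells, whereas EPCAM and CDH1, the epithelial adhesion genes, were above the floor on neither array. Of 5 blood cell markers on the array 4 were measurable, at intensities up to 71.3 in CA9 cells and 78.9 in vector cells, with a median difference of 0.09, and of 8 fibroblast and endothelial markers 7 were, at intensities up to 198 in CA9 cells (THY1) and 170 in vector cells (COL1A1), with a median difference of 0.17. Their part in the results was not tested.

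In the deposited values the VPS genes tended to lie lower in CA9 cells, the SNX genes did so less, and the CHMP genes did not. The median difference was -0.24 over 37 measurable VPS genes, -0.16 over 27 SNX genes and 0.04 over 8 CHMP genes, although the CHMP median was -0.02 once both arrays were given equal medians. Over all measurable genes the median was -0.03. Below 0 were 29 of the 37 VPS genes (78.4%) and 18 of the 27 SNX genes (66.7%), against 53.0% of all genes, and 2 of the 8 CHMP genes. The quartiles of the VPS genes were -0.29 and -0.05, against -0.24 and 0.21 for all genes, and 4 of the 37 (10.8%) were at least 1.5-fold lower, against 4.74% of all genes. Those of the SNX genes were -0.41 and 0.09. Of the 27 SNX genes 2 (7.41%) were at least 1.5-fold lower and 2 (7.41%) at least 1.5-fold higher, against 4.74% and 5.29% of all genes. With the dependence on intensity removed by loess, the VPS median was nearer to 0 and almost the same as the SNX median. They were -0.14 and -0.13, against 0.01 for all genes. Below 0 after loess were 70.3% of VPS genes and 59.3% of SNX genes, against 49.3% of all genes.

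**Figure D1:**
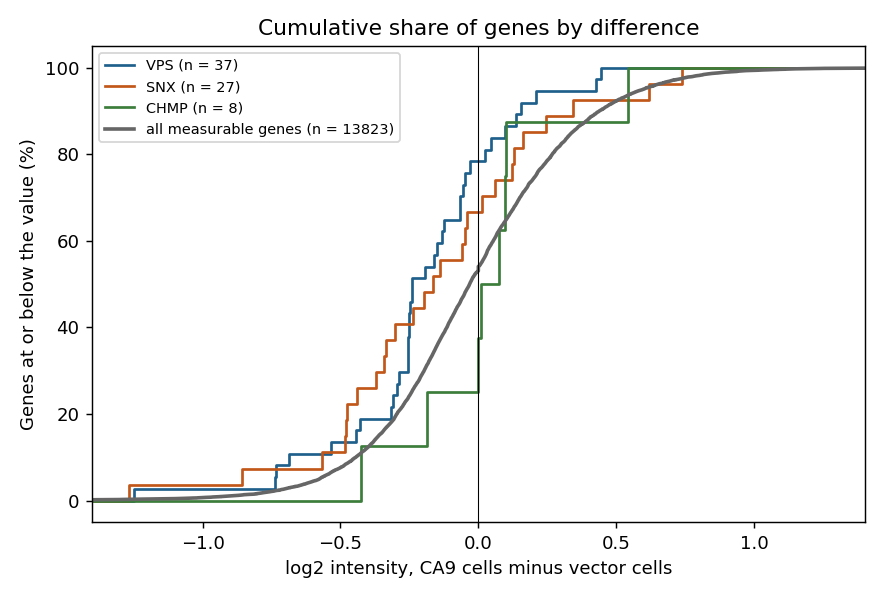
Cumulative share of genes (vertical axis, percent) at or below each log2 difference, CA9 cells minus vector cells (horizontal axis), for the VPS, SNX and CHMP families and for all 13823 measurable genes. The VPS curve reaches 78.4% at 0, where the curve for all genes is near its middle, and the CHMP curve is made of 8 genes.

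Few members were far apart between the lines. At least 1.5-fold higher in CA9 cells were 2 of the 72 members (2.78%), SNX8 and SNX3, against 5.29% of all measurable genes. At least 1.5-fold lower were 6 (8.33%), SNX16, VPS36, SNX13, VPS13C, VPS50 and VPS41, against 4.74%. At least 2-fold apart were SNX16 and VPS36, both lower, which is 2.78% of members, against 0.694% of genes at least 2-fold lower and 1.35% of genes at least 2-fold apart in either direction. Counts this small move by 1.39 percentage points with each gene. CHMP1A at 0.54 and SNX18 at -0.57 lay just short of 1.5-fold, which is 0.58 on the log2 scale, and SNX3 at 0.62 and VPS41 at -0.69 just past it. SNX16 alone (1.39% of members) stayed at least 1.5-fold lower with averages over each gene's probe sets, dim ones included, against 2.42% of all genes. Without probe sets named _x_at or _s_at, neither SNX3 nor SNX8 has one left that is paired with that symbol alone. SNX3 fell short of 1.5-fold, at 0.56, with equal medians.

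**Figure D2:**
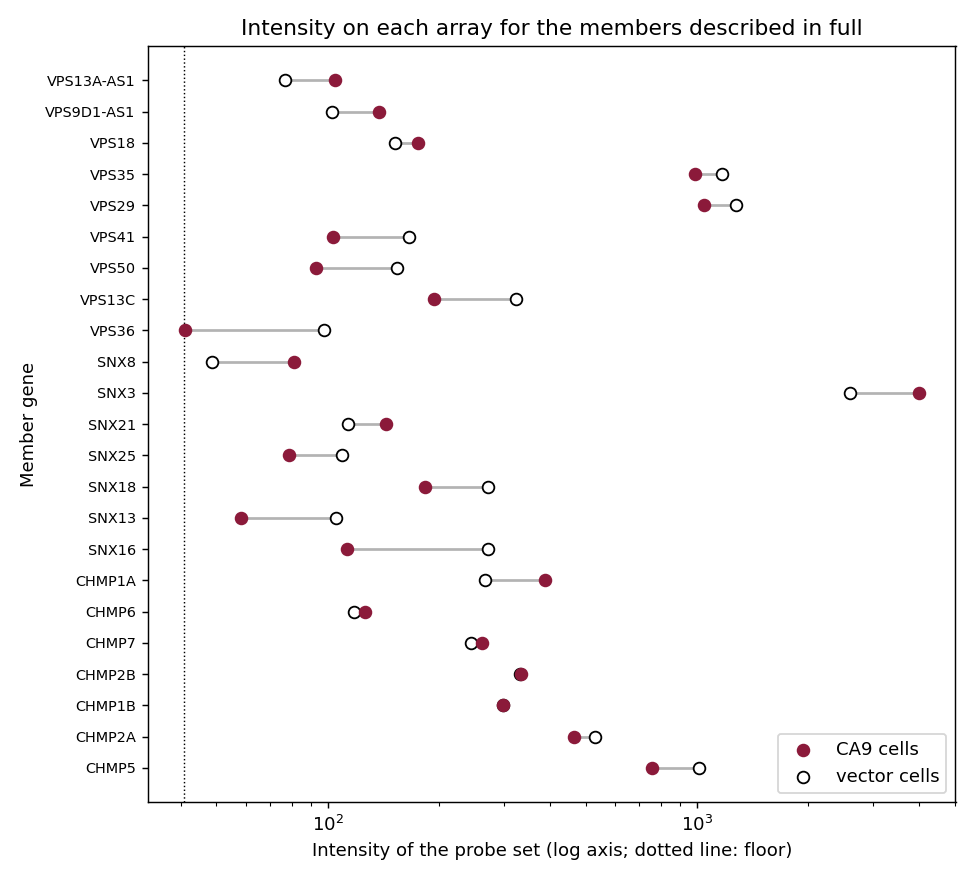
Intensity (log axis) of the probe set of each member described in full, with CA9 cells as filled and vector cells as open points and the floor of 40.8 as a dotted line. SNX16, VPS36 and SNX13 have CA9 cells far to the left of vector cells, SNX3 and SNX8 have them to the right, and most CHMP genes have nearly coinciding points.

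Technical disagreement was judged from probe sets of the same gene, which share the RNA and the array and are not replicates. The SD of log2 differences between probe sets of a gene was 0.31 over 6186 genes, and 0.32 over the 39 members with at least 2 probe sets above the floor. The next-brightest probe set had the same sign in 12 of 15 VPS genes (80.0%) and in 9 of 20 SNX genes (45.0%), against 62.4% of all such genes. It had the same sign in 1 of 4 CHMP genes. A difference of exactly 0 counted as not the same sign, which applied to CHMP1B, CHMP2B and SNX2. Counting probe sets in place of genes, 43 of 59 VPS probe sets above the floor lay below 0 (72.9%), as did 35 of 55 SNX probe sets (63.6%), against 53.0% of all probe sets above the floor. Of the 72 members 47 had a difference closer to 0 than 0.31.

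Retromer and its close relative were slightly lower in most of their subunits. VPS35, the scaffold of retromer, had an intensity of 990.1 in CA9 cells and 1169.7 in vector cells, a difference of -0.24. Its other probe sets spread widely: a pair with differences of -0.01 and -0.11 lay close to 0, while a dim one had 48.7 in CA9 cells and 138 in vector cells, a difference of -1.51. VPS29, the phosphoesterase-like subunit, had 1049.8 in CA9 cells and 1281.6 in vector cells (-0.29), and -0.11 in a dimmer probe set. VPS26A, an arrestin-like subunit, had 896.7 in CA9 cells and 1116.3 in vector cells (-0.32). VPS26B, the paralogue of VPS26A, went the other way, at 238 in CA9 cells and 214 in vector cells, with differences of 0.15 and 0.23 in its probe sets. Retriever, a related complex that works with SNX17, had differences of -0.25 for VPS26C, whose second probe set had 0.29, and -0.19 for VPS35L. The medians were -0.26 for the 4 retromer genes and -0.22 for the 2 retriever genes, and -0.11 and -0.02 in the alternative settings nearest to 0.

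**Figure D3:**
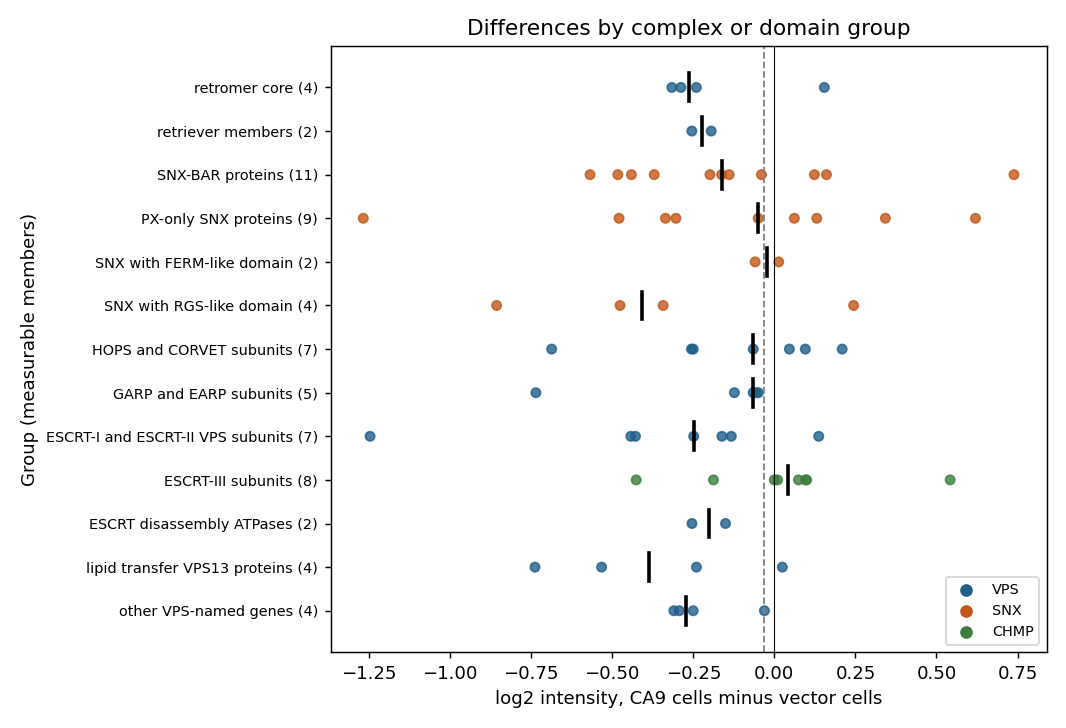
Log2 difference, CA9 cells minus vector cells, of each measurable protein-coding member by complex or domain group, coloured by family, with the group's median as a bar, 0 as a solid line and the median of all measurable genes as a dashed line. Retromer, ESCRT-I and ESCRT-II, VPS13 and RGS-domain nexins have medians between -0.41 and -0.25, and ESCRT-III has one of 0.04, which is -0.02 with equal medians. SNX15 belongs to no group and is not drawn.

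The members furthest from 0 in the deposited values were SNX16 and VPS36, and VPS36 was the lower after quantile normalization (-1.27, against -1.19 for SNX16) and after loess (-1.31, against -1.16). SNX16, a PX-domain protein of endosomes, had an intensity of 113 in CA9 cells and 272 in vector cells and was 2.41-fold lower (-1.27). Its second probe set had 22.8 in CA9 cells, below the floor, and 51.6 in vector cells, so both of its probe sets were lower. SNX13, which carries an RGS-like domain, had 58.4 in CA9 cells and 105.7 in vector cells and was 1.81-fold lower, and the other probe set above the floor had 55.3 in CA9 cells and 78.5 in vector cells (-0.51). SNX13 had 3 further probe sets below the floor on both arrays.

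SNX3, which recruits retromer to early endosomes and takes part in retrieving the WNT carrier WLS, had an intensity of 3999.5 in CA9 cells and 2602.0 in vector cells and was 1.54-fold higher. Its 3 other probe sets had 2477, 2146 and 1437 in CA9 cells, against 1597, 1246 and 1049 in vector cells, for differences of 0.63, 0.78 and 0.45. All 4 were thus higher in CA9 cells, and all have names ending in _x_at, which marks probes that may also match other transcripts. SNX8, a nexin with a membrane-bending BAR domain, had 81.2 in CA9 cells and 48.7 in vector cells and was 1.67-fold higher. This value rests on 1 probe set, also of the _x_at kind. The annotation pairs 2 others, not of that kind, with SNX8 and a second symbol, and both were brighter. They had 88.7 and 141 in CA9 cells, against 91.5 and 171 in vector cells, for differences of -0.05 and -0.27. The higher value of SNX8 was thus not seen in them.

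Of the 11 measurable BAR-domain nexins 8 lay below 0 (72.7%, against 53.0% of all genes), with a median of -0.16, against -0.03. SNX1, SNX2, SNX5 and SNX6 form the tubule coat that partners retromer, and they did not move as a unit. SNX6 had 609.5 in CA9 cells and 827 in vector cells (-0.44), and its second probe set had -0.46. SNX2 had 474 in CA9 cells and 613 in vector cells (-0.37) but 0.00 in its next probe set. SNX5 had 1342 in CA9 cells and 1478 in vector cells (-0.14), with its other 4 probe sets above the floor from -0.31 to 0.28. SNX1 had 480.2 in CA9 cells and 441 in vector cells (0.12), with others at 0.19 and -0.24.

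SNX4, a nexin of the recycling route, had 187 in CA9 cells and 262 in vector cells (-0.48), with a second probe set at -0.52. SNX18, which acts with dynamin in membrane remodelling, had 183 in CA9 cells and 272 in vector cells (-0.57). SNX9, its relative in clathrin-mediated uptake, had 229 in CA9 cells and 205 in vector cells (0.16), but -0.27 in its other probe set. SNX30 at -0.16, SNX33 at -0.20 and SNX32 at -0.04 completed the group. The differences of SNX4 and SNX6 were thus alike in both probe sets of each gene, while SNX1, SNX5, SNX9 and SNX33 (0.18 in its second) had probe sets on either side of 0.

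Of the 4 nexins with an RGS-like domain, SNX13, SNX25 and SNX14 lay below 0 and SNX19 above it at 0.24 (-0.03 in its second probe set). The median was -0.41, and -0.12 in the alternative setting nearest to 0. SNX25 had 78.8 in CA9 cells and 109.6 in vector cells (-0.48), yet a second probe set had 49.7 in CA9 cells and 34.4, below the floor, in vector cells. SNX14, needed for lipid handling at the endoplasmic reticulum, had 239.7 in CA9 cells and 304 in vector cells (-0.34, and -0.10 in a dim second probe set). The 9 measurable nexins with little beyond a PX domain had a median of -0.05, which was above 0 after quantile normalization and after loess. SNX10, a regulator of endosome and lysosome form, had 147 in CA9 cells and 204 in vector cells (-0.48). SNX24 had -0.34 but 0.10 in another probe set. SNX11 had -0.30, and -0.38 in its second probe set, and SNX21 had 0.34 but -0.31 in another probe set. SNX17 and SNX27, cargo adaptors with a FERM-like domain, had 718 in CA9 cells and 748 in vector cells (-0.06), and 305 in CA9 cells and 302 in vector cells (0.01), and a second SNX27 probe set had -0.12. SNX12 (-0.05), SNX15 (-0.24), SNX22 (0.13) and SNX29 (0.06) were the remaining measurable nexins. Of their other probe sets above the floor, that of SNX12 had -0.65, that of SNX22 had -0.05 and those of SNX29 had 0.29 and -0.13.

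**Figure D4:**
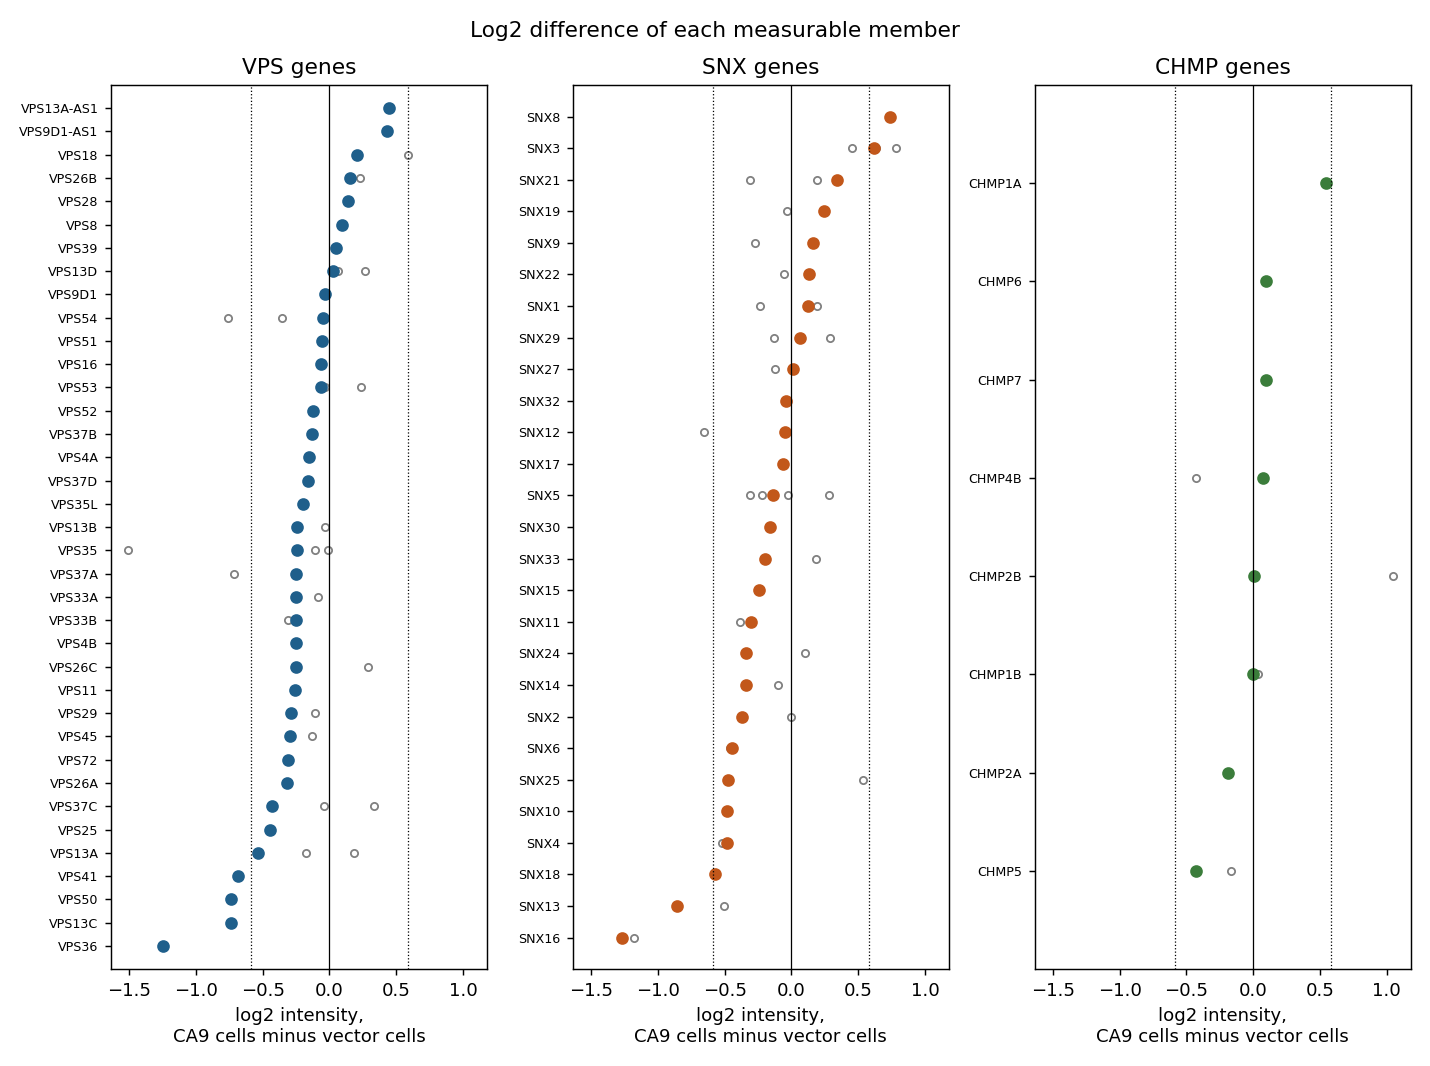
Log2 difference, CA9 cells minus vector cells, of each of the 72 measurable members, sorted within families. Filled points are the probe set that stands for the gene, open points its other probe sets above the floor, and dotted lines mark 1.5-fold; VPS35, CHMP2B and SNX25 have probe sets more than 1 apart.

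Among ESCRT genes, the VPS subunits of the early complexes lay mostly below 0 and the ESCRT-III subunits around it. VPS36, the ESCRT-II subunit that binds ubiquitin, had an intensity of 41.1 in CA9 cells and 97.6 in vector cells and was 2.37-fold lower. The CA9 value lies just above the floor, and the other VPS36 probe set was below it on both arrays. VPS25, also of ESCRT-II, had 490.4 in CA9 cells and 666 in vector cells (-0.44). SNF8, the ESCRT-II subunit that the symbol rule leaves out, went the other way. It had 763 in CA9 cells and 698 in vector cells (0.13). Of the ESCRT-I subunits, VPS37C had 266 in CA9 cells and 358 in vector cells (-0.43), with others at -0.04 and 0.34, and VPS37A had 94.3 in CA9 cells and 112 in vector cells (-0.25), with a second probe set at -0.72. VPS37D (-0.16), VPS37B (-0.13) and VPS28 (0.14) were nearer to 0, and 6 of the 7 VPS subunits lay below it, with a median of -0.25.

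The 8 measurable ESCRT-III genes ranged from -0.43 to 0.54, and none passed 1.5-fold in the deposited values. CHMP1A did so after quantile normalization (0.65) and after loess (0.66). CHMP5, a late-acting subunit, had 756 in CA9 cells and 1016 in vector cells (-0.43), with a second probe set at -0.17. CHMP1A, which helps to recruit VPS4, had 388 in CA9 cells and 266 in vector cells (0.54) in its only probe set. CHMP4B, the main filament-forming subunit, had 778 in CA9 cells and 739 in vector cells (0.07), but its second probe set had 155 in CA9 cells and 209 in vector cells (-0.43).

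CHMP2B, a late-assembling subunit whose mutation causes a form of frontotemporal dementia, had 335 in CA9 cells and 333 in vector cells (0.01), and exactly equal values of 288 in its next probe set. A further probe set had 271 in CA9 cells and 131 in vector cells, a difference of 1.05, so the probe sets of this gene disagreed by more than 2-fold. CHMP1B had 298.8 on both arrays, CHMP2A had 466 in CA9 cells and 531 in vector cells (-0.19), CHMP7 had 262 in CA9 cells and 245 in vector cells (0.10), and CHMP6 had 126 in CA9 cells and 118 in vector cells (0.10). Exactly equal values occurred in 3 of 185 member probe sets and in 2.61% of all probe sets. The ATPases that disassemble the filament, VPS4A and VPS4B, had 308 in CA9 cells and 342 in vector cells (-0.15), and 413 in CA9 cells and 492 in vector cells (-0.25).

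Of the 12 tethering subunits 2 were at least 1.5-fold lower, beside 4.74% of all genes, each by its only probe set above the floor. The median was -0.07 for the HOPS and CORVET subunits, and above 0 after quantile normalization and after loess. It was -0.07 for the GARP and EARP subunits, and ran from -0.40 to -0.01 over the alternative settings. VPS41, a HOPS subunit, had an intensity of 103 in CA9 cells and 166 in vector cells and was 1.61-fold lower (-0.69), and its other probe sets were below the floor on both arrays. The other 6 HOPS and CORVET subunits lay from -0.26 for VPS11 to 0.21 for VPS18, including VPS33A (-0.25), VPS16 (-0.07), VPS39 (0.05) and VPS8 (0.10). A second VPS33A probe set above the floor had -0.08. VPS18 had 176 in CA9 cells and 152 in vector cells, and a second probe set at 0.59. VPS50, the subunit that distinguishes EARP from GARP, had 92.9 in CA9 cells and 155 in vector cells and was 1.66-fold lower, in the only 1 of its 4 probe sets above the floor. VPS51, VPS52, VPS53 and VPS54 lay from -0.12 to -0.05, but the other probe sets of VPS54 had -0.36 and -0.76, and those of VPS53 had 0.24 and -0.03. VPS54 is the subunit that GARP has in place of VPS50.

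The lipid transfer genes differed among themselves. VPS13C had 195 in CA9 cells and 325 in vector cells and was 1.67-fold lower, and its 3 other probe sets were below the floor on both arrays. VPS13A, mutated in chorea-acanthocytosis, had 63.5 in CA9 cells and 91.9 in vector cells (-0.53), but its other probe sets above the floor had -0.18 and 0.19. VPS13B had -0.24, and -0.03 in its other probe set above the floor. VPS13D had 123 in CA9 cells and 121 in vector cells (0.02), with others at 0.06 and 0.27. The median of the 4 genes was -0.39, and -0.13 in the alternative setting nearest to 0.

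Both measurable antisense transcripts of VPS genes lay above 0. VPS13A-AS1 had 104.5 in CA9 cells and 76.9 in vector cells, 1.36-fold higher, in a probe set of the _x_at kind. VPS9D1-AS1 had 138 in CA9 cells and 103 in vector cells, 1.34-fold higher, while VPS9D1 itself had 62.9 in CA9 cells and 64.3 in vector cells (-0.03). Of the remaining VPS-named genes, VPS72 had 371 in CA9 cells and 460 in vector cells (-0.31). VPS45, which regulates SNARE assembly, had 102 in CA9 cells and 125 in vector cells (-0.29, and -0.13 in its second probe set). VPS33B, which acts with VIPAS39, had 155 in CA9 cells and 185 in vector cells (-0.25, and -0.31 in its second probe set). Without the 2 antisense transcripts, 29 of 35 VPS genes lay below 0 (82.9%).

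Some members are neighbours in the RefSeq gene order, with no protein-coding gene between them. SNX2 and SNX24 had differences of -0.37 and -0.34, but their other probe sets above the floor had 0.00 and 0.10. SNX1 and SNX22 had 0.12 and 0.13, but the other probe sets of SNX1 had 0.19 and -0.24 and that of SNX22 had -0.05, so the likeness holds only for the probe sets that stand for these genes. SNX16 lies next to CHMP4C, which was not measurable, at 11.4 in CA9 cells and 12.6 in vector cells.

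Partners with other names were also listed, with the results for the members known. Of 14 measurable ESCRT partners 9 lay below 0 (64.3%, against 53.0% of all genes). Their median was -0.07, and 0.00 after loess and 0.02 with averages over probe sets. At least 1.5-fold higher were 2 (14.3%), beside 5.29% of all genes: CC2D1A, a binder of CHMP4 proteins, had 221 in CA9 cells and 123 in vector cells (0.85), and MVB12A, an ESCRT-I subunit, had 273 in CA9 cells and 181 in vector cells (0.59). CC2D1A had 0.47 as an average over all its probe sets. MVB12A had only 1 probe set above the floor, and its average was the same 0.59. Of 17 retromer, retriever and WASH partners 15 lay below 0 (88.2%, against 53.0% of all genes), with a median of -0.17. Of all genes above the 75th percentile of intensity, 62.4% lay below 0. CCDC22, a subunit of the CCC complex, passed 1.5-fold, higher at 84.1 in CA9 cells and 53.5 in vector cells (0.65) but 0.33 as an average. The WASH subunits WASHC4, WASHC2C, WASHC5 and WASHC3, which build actin on endosomes, had -0.48, -0.34, -0.33 and -0.11. The medians of these partners and of the next list stayed below 0 in each of the 9 alternatives. Of 20 tethering, fusion and phosphoinositide genes 17 lay below 0 (85.0%, against 53.0% of all genes). Their median was -0.12, and -0.03 in the alternative nearest to 0. Only the SNARE gene STX8 (5.0% of the list, beside 4.74% of all genes) was at least 1.5-fold lower. It had 179 in CA9 cells and 273 in vector cells (-0.61, and -0.24 as an average).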

How the data were processed

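The deposited table holds 1 intensity per probe set for each of 2 arrays of human C33-A cells. The authors made these intensities with RMA, per the submitters' processing notes; the version and settings are not given in the sources used here. Their linear scale was read from the deposited values, and log2 was taken without a pseudocount. RMA smooths differences between probes, and with 1 array per line the precision is limited by the number of arrays. Genes were named from the platform annotation, with current symbols through the RefSeq table of GRCh38.p14, which changed no member. The highest mean log2 intensity chose a gene's probe set. The 1.5-fold and 2-fold rules are sizes, not tests. Members described in full were those past 1.5-fold, the 3 highest and 3 lowest of each family, the highest in mean log2 intensity of each family, and those with probe sets above the floor more than 1 apart. The members and lists were chosen with earlier results of these data known. There were 9 alternative settings. The software was pandas 2.3.3 with numpy 2.4.6 under Python 3.11.15, statsmodels 0.14.6 for loess and matplotlib 3.10.9 for figures.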

Additional observations from a re-analysis of the deposited data

Results flagged for a closer look

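A probe set paired with 2 symbols, and therefore outside the comparison, had an intensity of 44.9 in CA9 cells and 10.3 in vector cells. It stands out because it is above the floor on the CA9 array alone, at least 1.10-fold higher against the floor. It is 1 of 7 probe sets that carry a member's symbol together with another, and no gene is named from it.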

How the results depend on the processing

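No paired analysis was possible because each line has 1 array. Over the 9 alternatives the median of VPS genes ran from -0.30 to -0.14 and that of SNX genes from -0.30 to -0.09, both below 0 throughout, and that of CHMP genes from -0.02 to 0.14. The VPS median was -0.14 after quantile normalization and -0.14 after loess, and the SNX median was -0.13 after each. With a floor at the 75th percentile of intensity the SNX median was the lower, -0.30 against -0.24 for VPS genes. The median of all genes was then -0.10. With that floor 77.4% of VPS genes and 76.2% of SNX genes lay below 0, against 62.4% of all genes. Averaging the probe sets of a gene left 1 member (1.39%) at least 1.5-fold lower, against 2.42% of all genes. It left 1 at least 2-fold apart, against 0.673% of all genes. The number at least 2-fold apart was also 1 with the higher floor (1.43% of all genes) and with a pseudocount of 16 (0.673% of all genes). The number at least 1.5-fold higher was 0 without probe sets named _x_at or _s_at, 1 with the higher floor and 1 with equal medians. It was 3 after quantile normalization and after loess, where CHMP1A joined SNX3 and SNX8. Of all genes, between 3.63% and 5.35% were at least 1.5-fold higher in these settings. With equal medians 8 were at least 1.5-fold lower, SNX18 (-0.63) and VPS13A (-0.59) being added, while the share of all genes rose to 6.92%. Of 197 recomputed differences of the 23 members described in full, 189 moved by less than the SD between probe sets and 8 by more. None past 1.5-fold changed sign. The count of 189 overstates stability, because the other floors and current symbols could not change a member's difference. Equal medians lowered each by the same 0.06, which is less than the SD. Averaged over all probe sets, VPS36 had -0.53, SNX13 -0.43, VPS50 -0.36, VPS13C -0.31 and SNX25 0.01. Of the 72 measurable members 17 changed sign under at least 1 alternative.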

Other observations

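Receptors and other cargo that these coats carry were looked at as a list. Of 13 measurable cargo genes 8 lay below 0 (61.5%, against 53.0% of all measurable genes), with a median of -0.20 that stayed below 0 in each of the 9 alternatives. WLS, the WNT carrier that SNX3 and retromer retrieve, had an intensity of 430 in CA9 cells and 211 in vector cells and was 2.04-fold higher, beside 0.651% of all genes at least 2-fold higher, with an average of 0.98 over its probe sets. SORL1, a sorting receptor for the amyloid precursor protein, had 75.5 in CA9 cells and 140 in vector cells and was 1.85-fold lower, beside 4.74% of all genes at least 1.5-fold lower, with an average of -0.97. TFRC, the transferrin receptor, had 2091 in CA9 cells and 1598 in vector cells (0.39, but 0.13 as an average). LRP1, a large endocytic receptor, had 153 in CA9 cells and 113 in vector cells (0.44, and 0.25 as an average). APP had 827 in CA9 cells and 1059 in vector cells (-0.36). ITGB1, an integrin that SNX17 recycles, had 2793 in CA9 cells and 3474 in vector cells (-0.31). The mannose 6-phosphate receptors IGF2R and M6PR had -0.21 and -0.20. As averages over their probe sets APP had -0.20, ITGB1 -0.07, IGF2R -0.06 and M6PR -0.20.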
